A study of Mus musculus with 12 samples.

Results

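The transcripts described here encode the machinery of oxidative phosphorylation, together with its complex I assembly factors. Members were all symbols of the deposited count table that begin with Ndufa, Ndufb, Ndufc, Ndufs or Ndufv, with Uqcr, with Cox4 to Cox8 or with Atp5, the 4 Sdh subunit genes, and the protein-coding mt- genes. The rule found 107 of 22317 symbols. Of these, 13 lie on the mitochondrial chromosome and 94 in the nucleus. The nuclear members are 82 subunit genes (36 of complex I, 4 of complex II, 8 of complex III, 18 of complex IV and 16 of complex V), 8 Ndufaf assembly factors and 4 rows annotated as pseudogenes. A further 12 annotated symbols that fit the same pattern have no row and were not analysed here.

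Oxidative phosphorylation takes electrons from NADH through complex I and from succinate through complex II, passes them by way of coenzyme Q, complex III and cytochrome c to complex IV, and reduces oxygen to water. Complexes I, III and IV pump protons, and complex V, the ATP synthase, uses the returning protons to make ATP. Complex II is encoded wholly in the nucleus, whereas the other complexes are built from mitochondrial and nuclear gene products. Neurons depend heavily on this pathway, and several complex IV subunits exist as separate genes used by heart and skeletal muscle, by lung or by testis.

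RNA-seq of poly(A) RNA was analysed in 12 libraries from wild-type male BALB/c mice aged 8 weeks, 3 for each of 4 labelled groups. SB2 and SB4 carry the label brain cortex, taken 2 and 4 days after ischemic injury of the skull, and BS2 and BS6 carry the label interparietal bone, taken 2 and 6 days after ischemic injury of the brain. The injury was photothrombosis, in which a laser excites the dye Rose Bengal in the blood and closes the vessels of a small field. Uninjured tissue was not analysed here, so no value below is set against a control. The study's methods say, for brain and skull alike, that the tissue taken held ischemic and peri-ischemic regions. By the labels, however, the tissue taken in these 4 groups was not the one injured. The methods call the replicates biological, without saying whether animals were pooled.

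The libraries labelled SB2 and BS2 went against their labels in tissue content, while those labelled SB4 and BS6 did not. Col1a1, a main collagen of bone matrix, averaged 34348 CPM (read counts scaled to a common library size with TMM factors) in SB2 and 50606 CPM in BS6, against 3.14 CPM in SB4 and 7.30 CPM in BS2. The summed level of 8 neuronal marker genes was 8230 to 8362 CPM in SB4 and 7932 to 8017 CPM in BS2, against 33.3 to 63.6 CPM in SB2 and 42.0 to 127 CPM in BS6. A comparison of SB4 with SB2, or of BS6 with BS2, therefore also set libraries rich in brain transcripts against libraries rich in bone transcripts, and day and tissue content cannot be told apart in it. Whether the names of SB2 and BS2 were exchanged was not tested. An exchange would change which tissue and injury each early group stands for, so every group name here is only a label. Total counts were 14126082 to 18972654 per library, and the BS6 libraries were the least alike (mean Spearman correlation with their own group 0.955 to 0.971, against 0.988 to 0.994 elsewhere).

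Several mt- members share almost their whole sequence with unprocessed pseudogenes in the nuclear genome, which bears on how their counts can be read. On mouse mm10, chr1:24611535-24616197 holds a run of such copies on the minus strand. The first 40 bases of mt-Nd3 (chrM:9459-9498, plus strand) and of its copy Gm28438 (chr1:24613080-24613119, minus strand), and of mt-Atp6 (chrM:7927-7966, plus strand) and its copy Gm10925 (chr1:24614612-24614651, minus strand), are shown because these are the members whose copies drew more counts than the mitochondrial gene in every library. Capitals mark the base that differs.
mt-Nd3: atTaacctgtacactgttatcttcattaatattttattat
Gm28438: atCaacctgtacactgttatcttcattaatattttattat
mt-Atp6: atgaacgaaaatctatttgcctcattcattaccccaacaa
Gm10925: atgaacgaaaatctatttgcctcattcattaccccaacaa

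Over the aligned length, mt-Nd3 and Gm28438 had 344 of 345 bases in common, with the substitution T3C counted from the first base of mt-Nd3, and mt-Atp6 and Gm10925 had 678 of 678. Of all stretches of 150 bases in mt-Co2, mt-Co3, mt-Atp6, mt-Nd3 and mt-Nd4l, 97.0% to 99.8% also occur in another annotated gene. That share was 59.2% for mt-Nd4, 23.6% for mt-Co1 and 0% for mt-Cytb, mt-Nd1, mt-Nd2, mt-Nd5, mt-Nd6 and mt-Atp8. Counts followed this division except for mt-Atp8, which had only 3 to 14 counts per library. Copies outside annotated genes were not searched. The Gm10925 row held 621 to 1289 counts per library against 226 to 520 for mt-Atp6, and Gm28438 held 156 to 562 counts against 11 to 70 for mt-Nd3. The levels of these 5 genes, and that of the short mt-Atp8, which overlaps mt-Atp6, are therefore uncertain, and how reads that fit several places were counted is not given in the sources used here. Among the 82 nuclear subunit genes, 0 share more than 50% of such stretches with another gene and 58 share none.

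Per kilobase of annotated exon, the 7 most abundant members were all mitochondrial. mt-Co1, the catalytic subunit of complex IV, led with a mean of 13296 CPM per kilobase over the 12 libraries (range 8908 to 19861). It was followed by mt-Cytb of complex III at 7001 and by the complex I gene mt-Nd1 at 5965 CPM per kilobase. The highest nuclear members were Cox6a1 at 244, Cox8a at 237, Atp5a1 at 215 and Atp5b at 171 CPM per kilobase. These means over groups of unlike tissue content describe the order only.

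The balance between the mitochondrial and the nuclear genome was measured within each library as the summed counts of the 13 mt- members divided by the summed counts of the 94 nuclear members, a ratio that does not depend on scaling between libraries. It was 5.81, 5.83 and 5.51 in SB2, and 6.31, 6.25 and 6.71 in SB4. In BS2 the ratio was 7.51, 7.96 and 9.83, and in BS6 it was 8.37, 10.6 and 9.33. All 6 libraries labelled BS lay above all 6 libraries labelled SB, although each label holds a group rich in brain transcripts and a group rich in bone transcripts. Ordered by tissue content instead, the groups rich in brain transcripts were SB4 and the higher BS2, and those rich in bone transcripts were SB2 and the higher BS6, so the order by label rests on the names of SB2 and BS2. The means were 5.72 ± 0.179 (SD, n = 3) in SB2, 6.42 ± 0.253 in SB4, 8.43 ± 1.23 in BS2 and 9.43 ± 1.12 in BS6. Over all ways to divide 12 libraries into 4 groups of 3, an exact permutation test of F on the log2 ratio gave p = 0.00117 (F = 17.3). Of the 6 pairs of groups, only BS2 and BS6 overlapped (two-sided exact permutation p = 0.4), and the other 5 reached p = 0.1, the smallest that 3 against 3 allows (0.12 after Benjamini-Hochberg adjustment over the 6 pairs).

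The same ratio came from different parts in the BS groups. The summed mt- level was 59116 ± 6215 CPM in BS2 and 48046 ± 9345 CPM in BS6, against 36927 ± 3043 CPM in SB2 and 44003 ± 843 CPM in SB4. The summed nuclear level was 7037 ± 307 CPM in BS2, 6854 ± 151 CPM in SB4 and 6451 ± 355 CPM in SB2, but 5063 ± 382 CPM in BS6. BS2 thus had the highest mitochondrial sum, while BS6 had the lowest nuclear sum. In BS6, mt-Co1 alone took 46.0% to 52.8% of the mt- counts, against 40.8% to 43.7% in the other groups. The mt- sum, and with it the ratio, holds few reads of the genes almost wholly shared with nuclear copies. Their means ran from 3.11 (mt-Nd4l) to 121 (mt-Co2) CPM per kilobase, against 13296 for mt-Co1. Both measures therefore rest mainly on the other mt- genes. Without mt-Co1 the 4 groups still differed in the ratio (exact permutation p = 0.00292). BS6 then no longer stood above BS2 (mean log2 ratio 2.27 in BS6 and 2.29 in BS2). In bulk tissue, fewer cells of a type and less RNA per cell cannot be told apart. Whether libraries labelled BS and SB differed in RNA quality or handling was not tested.

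**Figure D1:**
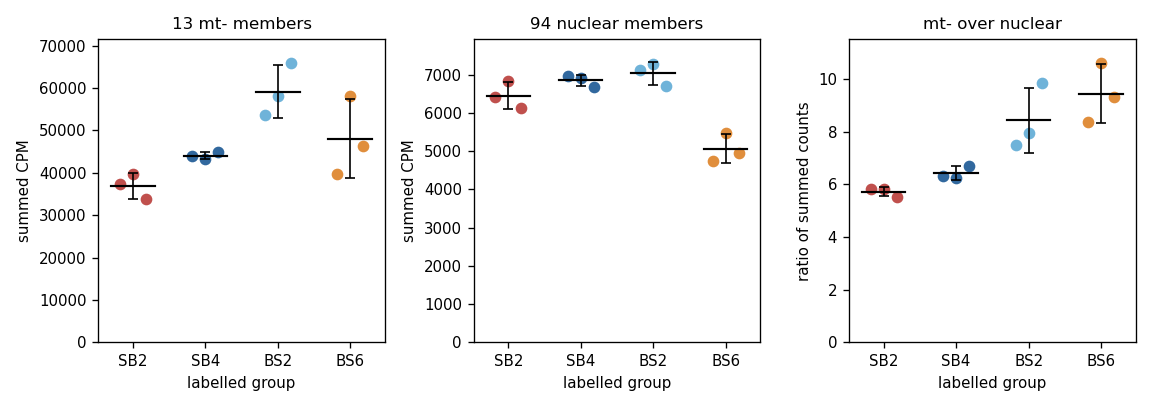
Summed CPM of the 13 mt- members (left), summed CPM of the 94 nuclear members (middle) and the ratio of their summed counts (right) by labelled group. Each point is a library, the long bar is the group mean and the error bar is the SD (n = 3); all axes begin at 0. The 6 BS libraries lie above the 6 SB libraries in the ratio, and BS6 is lowest in the nuclear sum.

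Nuclear subunit levels varied little beside the rest of the transcriptome in the comparisons that cross tissue content, SB4 with SB2 and BS6 with BS2. Among the 63 nuclear subunit genes that averaged 20 CPM or more, the ratio of the highest to the lowest group mean had a median of 1.57 (range 1.13 to 2.72) and was under 2 for 54 genes. Between SB4 and SB2, 3 of the 103 members tested were called higher in SB4 and 9 lower (5 of the 9 did not reach 10 counts in every library), where a call is an adjusted p under 0.05 from edgeR's quasi-likelihood test and an absolute log2 fold change over 1. Of all 17293 genes tested, 27.8% were called higher and 28.6% lower (56.4% in either direction). Between BS6 and BS2, 4 of 102 members were called higher (2 of them, Cox4i2 and Cox6b2, with under 10 counts in a BS2 library) and 12 lower, against 29.0% and 26.5% of 17311 genes (55.5% in either direction). The median absolute log2 fold change was 0.31 for the members and 1.25 for all genes between SB4 and SB2, and 0.55 against 1.26 between BS6 and BS2. Between groups of like tissue content the members did not stand below all genes in the same way. The values were 0.36 against 0.31 between BS6 and SB2, and 0.08 against 0.10 between SB4 and BS2. At an adjusted p under 0.05 whatever the fold, 35 members were higher and 32 lower in SB4 than in SB2 (41.3% and 42.0% of all genes), and 14 were higher and 45 lower in BS6 than in BS2 (38.2% and 36.8% of all genes). The complexes were then followed in turn, and the comparisons between groups of like tissue content, SB4 with BS2 and BS6 with SB2, are given after them.

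**Figure D2:**
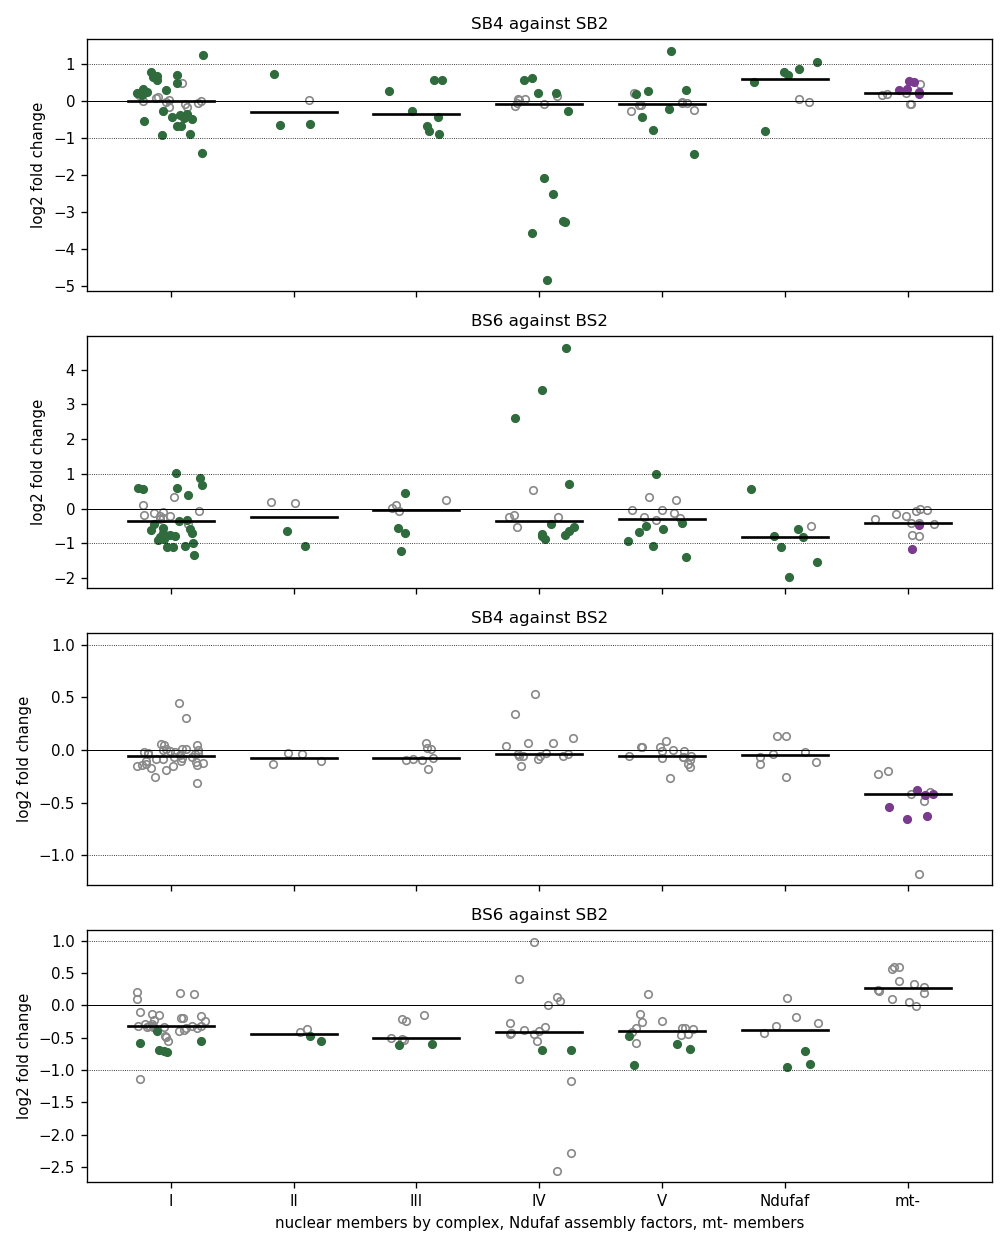
Log2 fold changes of the members tested in 4 comparisons, in columns for the nuclear subunit genes of complexes I to V, the Ndufaf assembly factors and the mt- members. Each point is a gene, filled where the adjusted p was under 0.05, dotted lines mark a log2 fold change of 1 and -1, and black bars are medians; the vertical scales differ between panels. The far points of complex IV are tissue isoforms, and in the SB4 against BS2 panel the filled points are all mt- members.

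The nuclear genes of complex I had changes in both directions. Of its 36 nuclear subunits, 12 were higher and 12 lower in SB4 than in SB2 at an adjusted p under 0.05 (41.3% and 42.0% of all genes), with a median log2 fold change of -0.01. In BS6, 7 were higher and 18 lower than in BS2 (38.2% and 36.8% of all genes), with a median of -0.34. The 7 core subunits, which carry the flavin and iron-sulfur centres found also in bacterial complex I, were mostly higher in the libraries rich in brain transcripts: 5 rose and 1 fell in SB4 against SB2 (median 0.29), and 5 of 7 fell in BS6 against BS2 with none rising (median -0.59).

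Ndufs1 (chr1:63143596-63176833), the largest iron-sulfur subunit, measured 77.9, 71.1 and 68.9 CPM in SB2 and 115, 119 and 114 CPM in SB4. In BS2 it was at 128, 120.3 and 125 CPM, and in BS6 at 62.3, 55.9 and 53.5 CPM. Every library of SB4 and BS2 was above every library of SB2 and BS6. The log2 fold change of Ndufs1 was 0.68 ± 0.07 (standard error, 3 libraries per group) in SB4 against SB2 (edgeR, Benjamini-Hochberg adjusted p = 1.95e-06) and -1.12 ± 0.10 in BS6 against BS2 (adjusted p = 8.04e-05). Ndufv1, which binds NADH and flavin, changed by 0.63 and -0.87 in the same comparisons. The accessory subunit Ndufa10 (chr1:92439010-92473860) was at 62.5 to 68.2 CPM in SB2 and 106 to 113 CPM in SB4, and at 102 to 114 CPM in BS2 and 49.9 to 51.8 CPM in BS6. Its log2 fold changes were 0.76 and -1.07, so it followed the core subunits.

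Ndufa9 (chr6:126821721-126849136), an accessory subunit next to the coenzyme Q site, had the largest fall of complex I in BS6 among members of at least 20 CPM. It was at 68.6, 66.4 and 69.2 CPM in BS2 and 22.8, 31.0 and 26.2 CPM in BS6, a log2 fold change of -1.35 ± 0.13 (edgeR, Benjamini-Hochberg adjusted p = 0.000142). Ndufa2, a small accessory subunit, went the other way. It measured 45.6, 49.1 and 43.2 CPM in SB2 but 18.3, 16.9 and 16.6 CPM in SB4, a log2 fold change of -1.40 ± 0.09 (edgeR, Benjamini-Hochberg adjusted p = 3.86e-08). In BS6 it was at 31.6 to 41.5 CPM against 16.3 to 23.8 CPM in BS2 (log2 fold change 0.88), again higher where bone transcripts were abundant.

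Ndufb7 (chr8:83566671-83571626), a membrane arm subunit, was the only complex I member called higher in BS6. Its 3 BS6 libraries stood at 49.6, 101 and 54.0 CPM and its BS2 libraries at 33.8, 37.1 and 29.5 CPM. The log2 fold change was 1.02 ± 0.29 (edgeR, Benjamini-Hochberg adjusted p = 0.0167), with replicate 2 of BS6 far above the others. Without that library the log2 fold change was 0.64, under the fold limit, and without replicate 1 or 3 of BS2 the adjusted p exceeded 0.05. The summed level of neutrophil markers in BS6 was 1378, 24267 and 3289 CPM, also highest in replicate 2, and its part in the Ndufb7 value was not tested. Ndufb2 (chr6:39592574-39603382) was the only complex I member called higher in SB4, at 19, 15.7 and 15.3 CPM against 7.73, 7.22 and 6.41 CPM in SB2 (log2 fold change 1.24).

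In complex II, the succinate dehydrogenase, Sdha and the membrane anchors moved in opposite directions between SB4 and SB2, while Sdhb did not pass (log2 fold change 0.02 ± 0.08). Sdha (chr13:74322254-74350280), the flavoprotein that oxidises succinate, was at 228, 229.9 and 216 CPM in SB2 and 362, 385 and 349.8 CPM in SB4. It was at 377, 372 and 375 CPM in BS2 and 186, 171 and 179.9 CPM in BS6. The groups rich in brain transcripts did not overlap with the others, and the log2 fold changes were 0.72 ± 0.07 in SB4 against SB2 (edgeR, Benjamini-Hochberg adjusted p = 1.93e-06) and -1.07 ± 0.09 in BS6 against BS2 (adjusted p = 8.94e-05).

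Sdhc and Sdhd anchor the enzyme in the inner membrane and hold its heme. Sdhd was at 107, 109 and 104 CPM in SB2 and 68.8, 69.9 and 63.5 CPM in SB4, a log2 fold change of -0.65 ± 0.06. Sdhc changed by -0.64 in the same comparison. Both anchor genes were thus lower in SB4 while Sdha was higher. In BS6 against BS2 the anchors did not pass the test (0.15 ± 0.09 for Sdhc and 0.18 ± 0.10 for Sdhd), whereas the iron-sulfur subunit Sdhb fell by 0.65 on the log2 scale. Transcript levels of the 4 subunits of complex II therefore did not move as a unit in either comparison.

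Complex III moves electrons from coenzyme Q to cytochrome c, and its nuclear genes divided by direction between SB4 and SB2. All 3 genes fixed as its core, among them Uqcrc1 and Uqcrc2, were higher in SB4 than in SB2 at an adjusted p under 0.05 and lower in BS6 than in BS2, and the other 5 nuclear genes were all lower in SB4 than in SB2. Of all genes, 41.3% were higher and 42.0% lower by that measure in SB4 against SB2, and 38.2% and 36.8% in BS6 against BS2. Uqcrc2 (chr7:120635176-120659524) measured 122, 113 and 110.3 CPM in SB2, 170.2, 164 and 171 CPM in SB4, 194, 171 and 177 CPM in BS2 and 79.4, 71.8 and 81.5 CPM in BS6. BS6 was lowest and did not overlap with SB2. Uqcrc2 shares 13.6% of its stretches of 150 bases with the gene Pdzd9. Its log2 fold changes were 0.56 ± 0.06 (edgeR, Benjamini-Hochberg adjusted p = 6.33e-06) in SB4 against SB2 and -1.22 ± 0.10 (adjusted p = 7.27e-05) in BS6 against BS2. The small subunit Uqcr10 (chr11:4701973-4704342) was at 62.0, 76.1 and 64.7 CPM in SB2 and 37.8, 36.5 and 33.0 CPM in SB4 (log2 fold change -0.91), and it rose by 0.44 in BS6 against BS2 (edgeR, Benjamini-Hochberg adjusted p = 0.0445). That pass was fragile, and held in only 2 of the 6 fits that left out 1 library. The other 4 small subunits did not pass in BS6 against BS2, with log2 fold changes from -0.07 to 0.26.

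Of the 18 nuclear complex IV genes, 4 were higher and 7 lower in SB4 than in SB2 at an adjusted p under 0.05 (41.3% and 42.0% of all genes), and 6 of the 7 were tissue isoforms, which are given separately. Of 16 tested in BS6 against BS2, 4 were higher and 7 lower (38.2% and 36.8% of all genes). Among the genes used in most tissues, Cox8a (chr19:7215153-7217616) was at 118, 128 and 120.5 CPM in SB2 and 191, 176 and 184 CPM in SB4. In BS2 it was at 170.1, 200.2 and 166 CPM, and in BS6 at 86.7, 125 and 96.1 CPM. Cox8a was therefore higher in both groups rich in brain transcripts, by 0.60 on the log2 scale in SB4 against SB2, and fell by 0.80 in BS6 against BS2. Cox4i1, the largest nuclear subunit, changed by 0.56 and -0.54. Cox7a2l is described as joining complexes III and IV in supercomplexes, which were not measured here. It moved against Cox8a and Cox4i1, with -0.27 in SB4 against SB2 and 0.69 in BS6 against BS2. Its libraries were at 134, 139 and 140.5 CPM in BS6 against 84.1, 95.2 and 76.5 CPM in BS2.

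In complex V, the catalytic F1 part was carried by Atp5a1 and Atp5b, the alpha and beta subunits. Atp5b (chr10:128083273-128090391) was at 735, 723 and 676 CPM in SB2, 872, 853 and 854 CPM in SB4, 874, 879 and 851 CPM in BS2 and 436, 465 and 462 CPM in BS6. SB4 and BS2 overlapped, SB2 lay below them and BS6 lay lowest. The log2 fold changes were 0.29 ± 0.07 in SB4 against SB2 (edgeR, Benjamini-Hochberg adjusted p = 0.00304) and -0.93 ± 0.11 in BS6 against BS2 (adjusted p = 0.000273). Atp5a1 changed by 0.26 and -0.68.

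The smallest F1 subunit, Atp5e (chr2:174461072-174464105), had the opposite pattern. It was at 82.7, 92.4 and 79.3 CPM in SB2 and 33.3, 26.9 and 33.3 CPM in SB4, and at 34.0, 40.2 and 27.9 CPM in BS2 and 63.4, 70.2 and 70.3 CPM in BS6. The groups rich in bone transcripts did not overlap with the others. The log2 fold change was -1.43 ± 0.10 in SB4 against SB2 (edgeR, Benjamini-Hochberg adjusted p = 7.83e-08), the largest fall of complex V there. In BS6 against BS2 it was 1.00 ± 0.15 (adjusted p = 0.000999), a value just under the fold limit and so not a call. Atp5s (chr12:69724950-69744660), named coupling factor B, was at 6.02 to 6.96 CPM in SB2 and 14.2 to 20 CPM in SB4, and it was called in both comparisons (1.34 and -1.40). Atp5l2-ps, a pseudogene row near 1 CPM, was called lower in SB4 (-1.46) and is named for completeness.

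The split between large and small subunits was followed across all nuclear subunit genes. Between SB4 and SB2, the 41 genes with a coding length of at most 417 bases had a median log2 fold change of -0.29 and the 41 longer genes 0.15. Between BS6 and BS2, the 40 genes of at most 426 bases had a median of -0.15 and the 40 longer genes -0.53. Spearman's rho between coding length and log2 fold change was 0.51 over 82 genes in the first comparison and -0.41 over 80 genes in the second. Between SB4 and BS2 it was 0.00 over 79 genes, and between BS6 and SB2 0.14 over 82 genes. These are descriptions across genes, which share libraries and complexes and are not independent. Mean CPM also went with the change (rho 0.41 and -0.27 in the first and second comparison), as longer coding genes here include the abundant core subunits, so length and abundance were not separated. Whether fragment size or RNA degradation differed between these libraries was not tested.

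**Figure D3:**
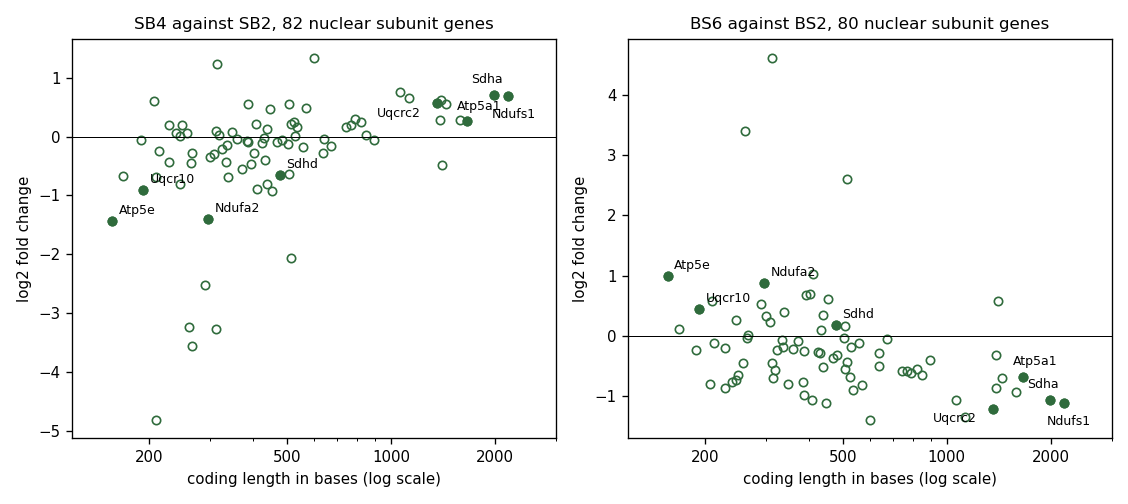
Log2 fold change of nuclear subunit genes against coding length in bases on a log axis, for SB4 against SB2 (82 genes) and BS6 against BS2 (80 genes). Each point is a gene, and filled points carry the names of members given in the text. Atp5e, Uqcr10 and Ndufa2 lie on the short side and Sdha, Ndufs1 and Uqcrc2 on the long side, with opposite signs in each panel.

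The 8 Ndufaf genes encode factors that help to assemble complex I and are not part of it. In SB4 against SB2, 5 were higher and 1 lower at an adjusted p under 0.05 (41.3% and 42.0% of all genes), with a median log2 fold change of 0.59. In BS6 against BS2, 1 was higher and 6 lower (38.2% and 36.8% of all genes), with a median of -0.81. Ndufaf5, a modifying enzyme of a core subunit, was at 11.1, 11.3 and 11.0 CPM in SB2, 23.7, 23.2 and 21.1 CPM in SB4, 23.8, 24.9 and 22.4 CPM in BS2 and 6.94, 5.0 and 6.27 CPM in BS6. Its groups did not overlap except for SB4 and BS2. The log2 fold changes were 1.04 ± 0.10 (edgeR, Benjamini-Hochberg adjusted p = 1.90e-06) and -1.96 ± 0.16 (adjusted p = 6.56e-05), the latter being the largest fall of any member tested in BS6 against BS2. Ndufaf4 was at 19.8 to 25.7 CPM in SB2, 38.5 to 43.8 CPM in SB4, 38.6 to 42.8 CPM in BS2 and 12.4 to 15.5 CPM in BS6, with log2 fold changes of 0.86 and -1.55. Ndufaf7, a methyltransferase, changed by 0.78 and -1.11.

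The promoters of Ndufaf4 and Ndufaf5 share a sequence feature with a few subunit genes, which the windows of the other 5 Ndufaf genes matched do not hold. Nuclear respiratory factor 1 (NRF1) is a regulator of genes for mitochondrial proteins, and its palindromic motif of 10 letters, the run in capitals in the sequences shown here, was searched on both strands from 250 bases before to 50 bases after the start of each gene. Promoters in RefSeq (GRCm38.p6) were matched for 73 of the 107 members. The motif lay in 7 of them (9.59%), against 1.07% of 27025 promoters, and those 7 were Atp5g2, Atp5k, Cox6a1, Ndufa11, Ndufaf4, Ndufaf5 and Uqcrc1. Shown are Ndufaf5 (chr2:140170396-140170695, plus strand) and Ndufaf4 (chr4:24897833-24898132, plus strand), both called lower in BS6, Uqcrc1 (chr9:108936398-108936697, plus strand), a core gene of complex III, and, for contrast, Cox6a1 (chr5:115348909-115349208, minus strand), the nuclear member of the highest level per kilobase. Capitals mark the motif.
Ndufaf5 promoter: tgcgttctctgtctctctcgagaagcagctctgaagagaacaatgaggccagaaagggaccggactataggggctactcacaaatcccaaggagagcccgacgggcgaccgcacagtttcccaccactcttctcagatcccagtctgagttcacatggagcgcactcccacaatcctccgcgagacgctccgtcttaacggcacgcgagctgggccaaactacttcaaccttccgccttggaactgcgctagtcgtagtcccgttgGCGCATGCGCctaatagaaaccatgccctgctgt
Ndufaf4 promoter: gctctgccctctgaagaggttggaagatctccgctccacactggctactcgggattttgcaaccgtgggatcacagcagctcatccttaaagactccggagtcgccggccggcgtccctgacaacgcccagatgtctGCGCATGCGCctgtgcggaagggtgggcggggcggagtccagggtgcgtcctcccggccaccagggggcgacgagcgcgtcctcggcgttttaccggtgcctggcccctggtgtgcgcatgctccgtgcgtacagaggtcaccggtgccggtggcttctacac
Uqcrc1 promoter: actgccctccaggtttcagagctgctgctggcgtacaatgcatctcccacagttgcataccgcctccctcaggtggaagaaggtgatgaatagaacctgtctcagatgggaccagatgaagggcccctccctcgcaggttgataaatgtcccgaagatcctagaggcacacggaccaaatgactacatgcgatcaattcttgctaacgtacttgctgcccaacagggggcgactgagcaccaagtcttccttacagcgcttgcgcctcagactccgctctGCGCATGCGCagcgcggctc
Cox6a1 promoter: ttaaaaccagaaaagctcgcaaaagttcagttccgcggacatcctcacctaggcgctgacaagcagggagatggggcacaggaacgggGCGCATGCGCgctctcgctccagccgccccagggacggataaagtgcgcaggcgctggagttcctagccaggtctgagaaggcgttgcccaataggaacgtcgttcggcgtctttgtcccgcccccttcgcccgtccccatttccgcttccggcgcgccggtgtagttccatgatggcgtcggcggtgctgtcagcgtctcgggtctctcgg

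The 4 genes with these promoters differed in level and in change. Uqcrc1 was at 155, 170.3 and 146 CPM in SB2 and 232, 227 and 227 CPM in SB4, with log2 fold changes of 0.56 in SB4 against SB2 and -0.70 in BS6 against BS2. Cox6a1 was at 180.1, 208 and 199 CPM in SB2 and 182, 177 and 166 CPM in SB4, and its ranges overlapped. Other motifs were also more frequent among the members than among all promoters: CCGGAAG, bound by ETS factors, in 24.7% against 9.93%, and AAGATGGC, bound by YY1, in 13.7% against 3.19%. The Sp1 motif GGGGCGGGG lay in 15.1% against 12.9%, and ACGTG, the core bound by hypoxia-inducible factors, in 23.3% against 21.8%. CAGCTG lay in 8.22% against 18.3% and TATAAA in 8.22% against 15.7%. A match in these windows is a description and was not tied to the expression values.

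Tissue isoforms of complex IV were read mainly by their levels, since several were close to the counting limit in SB4 and BS2. Of 6 restricted isoforms (Cox4i2, Cox6a2, Cox6b2, Cox7a1, Cox8b and Ndufa4l2), 4 had a library under 10 counts in SB4 and were tested against SB2 only because they were higher there, so their calls and fold changes carry little weight. Ndufa4l2 and Cox6a2 had at least 10 counts in every library of both groups and were called lower in SB4. The 6 partners expressed in most tissues had a median log2 fold change of 0.13 in SB4 against SB2 and no call (56.4% of all genes were called). Of these 6, 3 were higher and 0 lower at an adjusted p under 0.05 (41.3% and 42.0% of all genes). In BS6 against BS2, 5 of the 6 partners were lower at an adjusted p under 0.05 (36.8% of all genes) without reaching the fold limit. For each of 8 pairs the share of the isoform in the sum of both genes, per kilobase of exon, was taken in each library, and the log2 ratio of counts was compared across the 4 groups by the exact permutation test of F. After Benjamini-Hochberg adjustment over the 8 pairs, 7 had p under 0.05. A pass shows only that the 4 groups, which differ in tissue content, were not all alike. For the 4 isoforms with a library under 10 counts in SB4, the ratios in SB4 and BS2 rest on few counts. The p-values of those 4 pairs therefore also carry little weight.

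Cox6b2, known as the testis isoform of a subunit facing the intermembrane space, made up 3.94%, 5.13% and 3.77% of its pair with Cox6b1 in SB2 and 9.12%, 12.3% and 9.41% in BS6. In SB4 it was 0.352%, 0.621% and 0.330%, and in BS2 0.171%, 0.390% and 0.477%. BS6 exceeded SB2 in every library, and both exceeded SB4 and BS2 (exact permutation test, adjusted p = 0.00156). In CPM, Cox6b2 (chr7:4751792-4753094) was at 5.11, 7.61 and 5.14 in SB2 and 9.54, 17.2 and 9.31 in BS6. Its counts were 7, 16 and 8 in SB4 and 4, 9 and 9 in BS2, so no fold change is given. The summed level of erythroid markers was 1259, 4511 and 1423 CPM in SB2 and 8495, 13004 and 7799 CPM in BS6. The libraries of these groups had the same order in this sum as in Cox6b2 CPM, unlike those of BS2 (535, 168 and 247 CPM). Oligodendrocyte marker sums also had that order (110, 208 and 119 CPM in SB2 and 139, 311 and 125 CPM in BS6). So did adipocyte marker sums (62.3, 105 and 70.4 CPM in SB2 and 133, 158 and 107 CPM in BS6). Oligodendrocyte markers were far higher in SB4 and BS2 (2685 to 3955 CPM), where Cox6b2 was low. An order of 3 libraries thus singled out no cell type. Neutrophil markers were also highest in replicate 2 of SB2 and of BS6. The part of these cells in Cox6b2 was not tested.

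Ndufa4l2, a paralog of Ndufa4 that rises in low oxygen, varied widely in BS6. Its share of the pair was 15.0%, 15.5% and 15.2% in SB2 but 37.5%, 8.03% and 23.1% in BS6, against 1.22% to 2.63% in the 6 libraries of SB4 and BS2 (exact permutation test, adjusted p = 0.00758). Cox4i2, an isoform known from lung and induced by low oxygen, made up 5.84%, 8.58% and 7.13% of its pair with Cox4i1 in SB2 and 12.3%, 4.00% and 8.45% in BS6, against 0.671% to 1.85% in SB4 and BS2 (adjusted p = 0.00779). In both pairs, replicate 2 of BS6 had the lowest share of its group and still lay above every library of SB4 and BS2. The summed level of 8 smooth muscle and pericyte marker genes was 927 to 1187 CPM in the 6 libraries of SB2 and BS6 and 178 to 251 CPM in the others, and its part in these shares was not tested.

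Cox6a2, Cox7a1 and Cox8b are the heart and skeletal muscle isoforms. Cox8b (chr7:140898945-140900446) was at 5.97, 8.53 and 1.33 CPM in SB2, at 0.0548 to 0.356 CPM in SB4, at 0 to 0.0723 CPM in BS2 and at 0.133, 0.813 and 2.33 CPM in BS6. In counts it was at 1, 0 and 1 in BS2 and 2, 13 and 36 in BS6, so replicate 1 of BS6 lay under the limit of 3 counts and no fold is given. In SB4 it had 5, 3 and 1 counts against 105, 130 and 22 in SB2, and no fold is given there either. Cox6a2 (chr7:128205435-128206387) was at 23.3, 34.8 and 4.84 CPM in SB2 and 2.85 to 4.2 CPM in SB4, a log2 fold change of -2.52 ± 0.82 (adjusted p = 0.0389) that lost its call when most single libraries were left out.

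Replicate 3 of SB2 was low in all 3 muscle isoforms. The summed level of 12 skeletal muscle marker genes was 2901, 3616 and 473 CPM in SB2, 145, 207 and 932 CPM in BS6, and 49.8 to 68.3 CPM in SB4 and BS2. The order of the libraries within SB2 and within BS6 was the same for this sum as for Cox6a2 and Cox8b. For Cox7a1 it was the same within SB2 but not within BS6, where Cox7a1 was at 1.47, 0.438 and 1.03 CPM and highest in the library with the lowest muscle sum. The part of muscle tissue in the muscle isoforms was not tested further. The shares of the pairs gave an exact permutation test adjusted p of 0.00506 for Cox7a1 with Cox7a2, 0.00506 for Cox8b with Cox8a and 0.0704 for Cox6a2 with Cox6a1, which did not pass.

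Complex V has 3 genes for an identical mature c subunit, the ring that turns with the proton flow. Atp5g1 made up 8.92%, 9.57% and 9.97% of its pair with Atp5g3 in SB2, 10.8% to 12.4% in SB4, 10.3% to 11.6% in BS2, and 7.14%, 5.26% and 7.43% in BS6 (exact permutation test, adjusted p = 0.00156). BS6 was lowest without overlap. Atp5g2 made up 6.65% to 8.70% in SB2 and 5.07% to 7.82% in BS6 against 3.48% to 5.39% in the other groups (adjusted p = 0.0262), with overlapping ranges. That test did not pass with a replicate block (0.0615) or without replicate 1 (0.0523) or 3 (0.0599) of SB2, and Atp5g2 shares 33.1% of its stretches of 150 bases with the pseudogenes Gm10175 and Gm10231. Atp5g1 itself (chr11:96068852-96075670) was at 32.3, 29.7 and 25.2 CPM in BS2 and 13.5, 12.6 and 15.6 CPM in BS6 (log2 fold change -1.06).

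**Figure D4:**
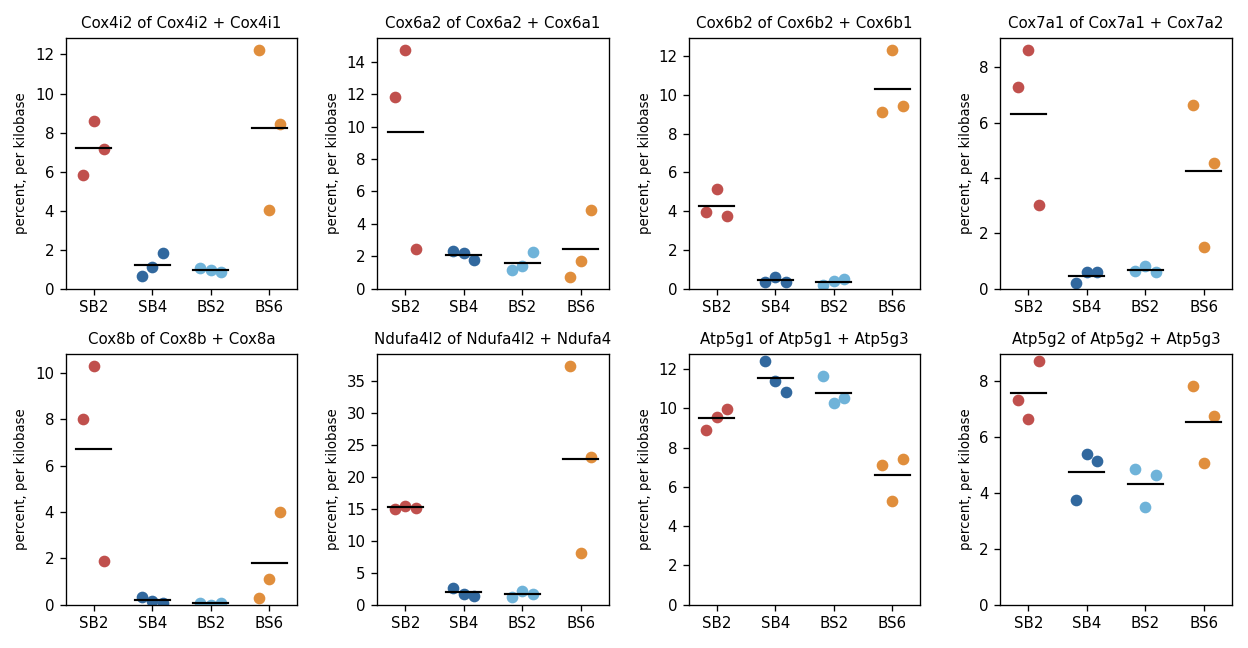
Share of an isoform in the sum of both genes of its pair, in percent, from CPM per kilobase, for 8 pairs by labelled group. Each point is a library and the bar is the group mean (n = 3); every axis begins at 0 and the scales differ. Cox6b2 is highest in the 3 BS6 libraries, Cox8b and Cox6a2 are highest in 2 of 3 SB2 libraries, and Atp5g1 is lowest in BS6.

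SB4 and BS2, groups of like tissue content, differed in mt- members. All 12 mt- members tested had a negative log2 fold change in SB4 against BS2 (median -0.42), 10 of them without overlap between the groups (8.5% of all genes were lower without overlap), and 6 had an adjusted p under 0.05. The nuclear members had a median of -0.05, and 0 of 88 passed at an adjusted p under 0.05 by edgeR or by DESeq2 (9 had an unadjusted p under 0.05 by edgeR). Of all 16278 genes, 0.369% were lower and 0.571% higher at an adjusted p under 0.05, and with the fold limit 0.0860% were called higher and 0.0614% lower (0.147% together), while 0 members were called (19 of 100 members had an unadjusted p under 0.05). The summed level of the 8 neuronal markers differed little between these groups (8230 to 8362 against 7932 to 8017 CPM).

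mt-Nd2, a membrane subunit of complex I, was at 3945, 3774 and 4086 CPM in SB4 and 5601, 5997 and 7025 CPM in BS2. mt-Cytb, the only mitochondrial gene of complex III, was at 6488, 6909 and 7031 CPM in SB4 and 9038, 9851 and 10838 CPM in BS2. Neither gene overlapped between the groups. The log2 fold changes were -0.65 ± 0.07 for mt-Nd2 (edgeR, Benjamini-Hochberg adjusted p = 0.000389) and -0.54 ± 0.06 for mt-Cytb (adjusted p = 6.14e-05). mt-Co1 changed by -0.38, mt-Nd1 by -0.42, mt-Nd4 by -0.43 and mt-Atp6 by -0.63, all at an adjusted p under 0.05. mt-Nd5 missed it (-0.23 ± 0.07, adjusted p = 0.18). The number of mt- members that passed was 10 without replicate 1 of BS2, 3 without replicate 2 of BS2 and 0 in a fit of all 12 libraries that shared 1 dispersion, with all mt- log2 fold changes still negative.

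In the comparisons that cross tissue content, mt- members stayed under the fold limit with the exception of mt-Nd2. In SB4 against SB2, 10 of 12 were positive (median 0.22) and 6 passed, among them mt-Nd2 (0.53) and mt-Nd5 (0.50), at an adjusted p under 0.05 but under the fold limit, beside 41.3% of all genes higher by that measure. With total counts 3 were higher, and with upper-quartile factors 2 were higher and 1 lower. In BS6 against BS2 all 13 were negative (median -0.41), although 3 turned positive with upper-quartile factors, and 2 passed (36.8% of all genes were lower by that measure). mt-Nd2 was called there, at 5601, 5997 and 7025 CPM in BS2 and 2529, 2926 and 2897 CPM in BS6, a log2 fold change of -1.16 ± 0.17 (edgeR, Benjamini-Hochberg adjusted p = 0.000847). It was the only mt- call in any of the 4 comparisons.

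Between BS6 and SB2, both rich in bone transcripts, the mean summed mt- level was higher and the mean summed nuclear level lower in BS6, as given above. The mt- sums overlapped, at 39718.5, 58152 and 46267 CPM in BS6 and 33741 to 39804 CPM in SB2. The nuclear sums did not, at 4746 to 5487 CPM in BS6 and 6120 to 6826 CPM in SB2. Of 91 nuclear members tested, 80 had a negative log2 fold change in BS6 (median -0.36), 46 of them without overlap (17.2% of all genes were lower without overlap), and 19 had an adjusted p under 0.05, against 3.42% of 16329 genes lower and 2.28% higher by that measure. With the fold limit, 1.11% of all genes were called higher and 0.741% lower (1.86% together), against 0 members (49 of 103 members had an unadjusted p under 0.05, and DESeq2 called 2). Of the 12 mt- members, 11 were positive (median 0.26) and 0 passed by edgeR or by DESeq2 (2 had an unadjusted p under 0.05, and 2 passed in a fit of all 12 libraries).

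The nuclear genes that passed in BS6 against SB2 included members of each complex. Atp5b was at 436 to 465 CPM in BS6 against 676 to 735 CPM in SB2 (log2 fold change -0.68 ± 0.12; edgeR, Benjamini-Hochberg adjusted p = 0.0364), Ndufa9 changed by -0.73, Sdhb by -0.55, Uqcrc2 by -0.60 and Cox7b by -0.70. Atp5g1 changed by -0.93. The assembly factor Ndufaf2 changed by -0.95, a value that is uncertain because 60.7% of its stretches of 150 bases also occur in other genes. Ndufa12 had the largest fall of complex I (-1.14 ± 0.25) but just missed the threshold (adjusted p = 0.0532). The number that passed was fragile: 0 remained without any of the 3 SB2 libraries or without replicate 1 or 3 of BS6, 52 passed without replicate 2 of BS6, and the median stayed between -0.46 and -0.34 in these fits. The summed level of erythroid markers was 7799 to 13004 CPM in BS6 against 1259 to 4511 CPM in SB2, that of neutrophil markers was 1378, 24267 and 3289 CPM against 818 to 1454 CPM, and that of macrophage markers 1513 to 2658 CPM against 1025 to 1177 CPM. Other marker sums were lower in BS6, with osteoblast and osteocyte markers at 1235 to 2865 CPM against 3272 to 5243 CPM, brown adipocyte markers at 22.1 to 29.0 CPM against 96.0 to 125 CPM and skeletal muscle markers at 145 to 932 CPM against 473 to 3616 CPM. The brown adipocyte sum was mostly Dio2 there (means of 107 CPM in SB2 and 23.4 CPM in BS6), with Ucp1 at 0.545 and 0.0633 CPM. It was also higher in SB4 (138 to 188 CPM) and BS2 (133 to 162 CPM), so it is not read as a measure of that cell type. The part of any of these in the lower nuclear levels was not tested.

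Genes outside the rule that serve the same pathway were counted from lists of 127 symbols, of which 123 have a row. In SB4 against SB2, 13 of 119 tested were called higher and 11 lower, and in BS6 against BS2, 7 of 118 higher and 22 lower, again smaller shares than the 27.8%, 28.6%, 29.0% and 26.5% of all genes. Between SB4 and BS2, 0 of 117 were called (8 had an unadjusted p under 0.05 by edgeR). In BS6 against SB2 the chaperone gene Hspd1 was the only call (-1.10), against 1.86% of all genes called, and 22 of 119 were lower and 0 higher at an adjusted p under 0.05 (3.42% and 2.28% of all genes).

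Among the 12 regulators of mitochondrial biogenesis, Ppargc1a (the coactivator PGC-1alpha) was at 80.8 ± 1.76 CPM (SD, n = 3) in SB4 and 77.9 ± 8.45 CPM in BS2, against 3.28 ± 0.758 CPM in SB2 and 2.69 ± 1.26 CPM in BS6. Its log2 fold changes were 4.63 in SB4 against SB2 and -4.85 in BS6 against BS2. The nuclear receptor gene Esrrg changed by 4.77 and -3.95. Of all 12 regulators, 7 were higher and 5 lower in SB4 than in SB2 at an adjusted p under 0.05, and 5 were higher and 5 lower in BS6 than in BS2, beside 41.3%, 42.0%, 38.2% and 36.8% of all genes. The nuclear subunit genes had medians of -0.06 and -0.30 in these comparisons.

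Assembly factors for the other complexes were mixed in SB4 against SB2. At an adjusted p under 0.05, 1 of 3 tested for complex II was higher and 0 lower, 3 of 6 for complex III were higher and 2 lower, and 2 of 4 for complex V were higher and 1 lower. In BS6 against BS2 the counts were 0 higher and 1 lower, 1 higher and 5 lower, and 0 higher and 2 lower. Over all genes the shares were 41.3% higher and 42.0% lower in the first comparison and 38.2% and 36.8% in the second. Of the genes called, Lyrm7 (1.91 and -2.78) and Ttc19 (1.79 and -2.25) serve complex III, Sdhaf3 (1.79 and -2.14) complex II and Atpaf1 (1.75 and -1.6) complex V. Cox20, which serves complex IV, averaged 2.08 CPM in SB2 and 2.64 CPM in BS6 against 0.561 CPM in SB4 and 0.623 CPM in BS2, levels too low for its fold changes to carry weight. Of the 18 complex IV assembly genes tested, 6 were higher and 4 lower in SB4 than in SB2 at an adjusted p under 0.05. In BS6 against BS2, 1 of 18 was higher and 8 were lower. Of the 16 genes for expression of mitochondrial DNA tested, 5 were higher and 5 lower in SB4 than in SB2, with Polg2, a subunit of the mitochondrial DNA polymerase, as the only call in that comparison (-1.55 and 2.00). For these genes, 2 of 16 were higher and 4 lower in BS6 than in BS2.

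In the tricarboxylic acid cycle, 9 of 13 genes were higher and 3 lower in SB4 than in SB2 at an adjusted p under 0.05, and 2 were higher and 10 lower in BS6 than in BS2, beside 41.3%, 42.0%, 38.2% and 36.8% of all genes. Idh3a, a subunit of the NAD-dependent isocitrate dehydrogenase, was at 252 ± 7.87 CPM in SB4 and 251 ± 2.30 CPM in BS2, against 83.6 ± 5.71 CPM in SB2 and 49.8 ± 3.96 CPM in BS6. Idh2, the NADP-dependent enzyme, was at 114.5 ± 6.08 CPM in SB2 and 79.1 ± 6.31 CPM in BS6, against 27.3 ± 2.15 CPM in SB4 and 27.7 ± 0.476 CPM in BS2. The enzymes were thus high in opposite groups, with log2 fold changes of 1.6 and -2.34 for Idh3a and -2.06 and 1.51 for Idh2. Ucp2, an inner membrane carrier abundant in immune cells, was at 219 ± 20.6 CPM in SB2 and 437 ± 130.0 CPM in BS6, against 15.9 ± 0.802 CPM in SB4 and 16.4 ± 1.34 CPM in BS2. The import receptor genes Tomm20 (1.87 and -1.92) and Tomm70a (1.41 and -1.96) were higher in SB4 and BS2. Of all 9 protein import genes, 4 were higher and 4 lower in SB4 than in SB2 at an adjusted p under 0.05. In BS6 against BS2, 1 was higher and 6 were lower. Mcub averaged 17.9 CPM in SB2 and 12.4 CPM in BS6 against 0.924 CPM in SB4 and 0.636 CPM in BS2, near the counting limit.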

How the data were processed

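The authors cleaned reads with fastp, mapped them to mm10 with HISAT2 2.1.0 (per the submitters' processing notes) and deposited a table of raw read counts by gene symbol that was not normalized; the counting program, annotation and use of strand are not given in the sources used here. The study removed batch effects with ComBat_seq, and whether the deposited counts are from before or after that step is not given either. Levels are CPM with TMM factors over 12 libraries. Groups were taken from the labels and columns matched by name, with 0 columns of other samples. Genes were tested with edgeR 4.0.16 (R 4.3.3; filterByExpr, minimum count 10; TMM; quasi-likelihood test; Benjamini-Hochberg adjustment over all genes tested) in fits of 2 groups, tested on simulated data first. Replicates are separate samples by their labels and biological by the study's methods; whether animals were pooled is not given in the sources used here. No pair agreed within counting noise. Ratios were compared by exact permutation tests; isoform ratios used 0.5 added to each count. Alternatives were DESeq2 1.42.0, other scalings and filters, a 12-library fit, a replicate block and leaving out each library. Coordinates are GENCODE M21 (mm10); promoters are RefSeq. At this depth 3 counts are at most 0.212 CPM, for counting error only.

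The members and lists were chosen with earlier results of these data known. Members were named by a rule: every mt- member, both genes of each isoform pair, per complex the largest and smallest change among members of at least 20 CPM in the comparisons of SB4 with SB2 and BS6 with BS2, and up to 2 called genes per pathway list; other members named were chosen after their values were seen.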

Additional observations from a re-analysis of the deposited data

Results flagged for a closer look

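The change from SB2 to SB4 was set against the change from BS2 to BS6 in a contrast over all 12 libraries, and 79 of 105 members differed between both changes at an adjusted p under 0.05 (edgeR, quasi-likelihood, Benjamini-Hochberg). Of all 18068 genes in that fit, 84.9% differed by the same measure against 75.2% of the members, so the count is no result about the members. Of these 79 members, 74 had opposite signs of both changes, 74 were nuclear and 5 were mt- genes. The signs were counted whether or not each change passed by itself, and some were close to 0, such as 0.01 for Ndufa4 in SB4 against SB2. The later group is the one rich in brain transcripts in the first change and the one rich in bone transcripts in the second, so the time after injury and tissue content cannot be told apart in this difference.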

How the results depend on the processing

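Most values recomputed kept their direction and their side of the threshold. No change printed for a single gene reversed, but of the 13 mt- members negative in BS6 against BS2, 3 turned positive with upper-quartile factors and up to 4 on leaving out a library. Counting every member at an adjusted p under 0.05, whatever the fold, gave 67 members between SB4 and SB2 (35 higher, 32 lower), 59 between BS6 and BS2 (14 higher, 45 lower), 6 between SB4 and BS2 (all lower) and 19 between BS6 and SB2 (all lower). At least 10 counts in every library left 7 of 12 calls between SB4 and SB2, with 4 lower, since fewer low genes were tested. Between SB4 and BS2, 1 member was called lower with no filter, and 0 to 1 on leaving out each library (1 without replicate 1 of BS2 or replicate 3 of SB4). The mt- members lower at an adjusted p under 0.05 there numbered 0 in the fit of all 12 libraries and 3 to 10 on leaving out each library. Between BS6 and SB2, 3 members were called in the fit of all 12 libraries (1 higher, 2 lower), 2 by DESeq2 (both lower), 2 with total counts only (both lower), 1 with no filter (lower), 1 with upper-quartile factors (lower) and 0 to 1 on leaving out each library (1 lower, without replicate 2 of BS6). The nuclear members lower at an adjusted p under 0.05 there numbered 39 in the fit of all 12 libraries, 37 by DESeq2 and 0 to 52 on leaving out each library. The cause of these shifts was not tested. Of all calls between BS6 and SB2, the higher ones were 60.1%, but 43.3% with total counts only, 74.4% in the fit of all 12 libraries and 70.2% by DESeq2. Upper-quartile factors moved the median log2 fold change of all genes between SB4 and SB2 to -0.14 and total counts to -0.11.

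With a replicate block, 1 member (mt-Nd3) was called lower between SB4 and BS2 and 0 nuclear members were lower at an adjusted p under 0.05 between BS6 and SB2; the adjusted p of Atp5g2 with Atp5g3 was 0.0615. Same-numbered libraries had correlations of deviations from -0.131 to 0.0931, so the numbers were not taken to pair samples. The mt- members at an adjusted p under 0.05 under the block were 4 between SB4 and SB2 and 9 between SB4 and BS2, against 6 and 6 without it. The ratio of mt- to nuclear counts gave exact permutation p-values of 0.00143 from mean log2 values, 0.0011 with subunit genes only, 0.00117 with copies added, 0.00331 with members sharing under 1% of their stretches (the last 2 chosen after seeing the data) and 0.00039 to 0.00519 on leaving out each library. The order of BS6 and BS2 was not stable. BS6 had the lower mean from mean log2 values (3.44 against 3.50) and with members sharing under 1% (2.07 against 2.09). The pair of Cox6a2 and Cox6a1 passed without replicate 3 of BS6 (0.0316) or of SB2 (0.0374), and that of Atp5g2 and Atp5g3 failed without replicate 1 (0.0523) or 3 (0.0599) of SB2. Depth limits the isoforms near 1 CPM, chiefly Cox8b and Cox7a1, and the mt- members with nuclear copies.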

Other observations

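The mitochondrial ribosomal RNA genes lie outside the rule and are not meant to be kept by poly(A) selection, yet both had counts. mt-Rnr1 was at 398 to 594 CPM in SB2, 3081 to 3628 CPM in SB4, 2835 to 3067 CPM in BS2 and 729 to 2122 CPM in BS6. mt-Rnr2 was at 573 to 839 CPM in SB2, 4104 to 4744 CPM in SB4, 2855 to 3286 CPM in BS2 and 1019.9 to 2528 CPM in BS6. Between SB4 and SB2 the log2 fold change was 2.71 for mt-Rnr1 and 2.64 for mt-Rnr2, larger than that of any mt- member in that comparison (at most 0.53). Between SB4 and BS2, mt-Rnr2 was higher in SB4 by 0.51 on the log2 scale (edgeR, Benjamini-Hochberg adjusted p = 0.000269) and mt-Rnr1 had a log2 fold change of 0.14 (adjusted p = 0.36), whereas all 12 mt- members tested had negative values there. The mt- messenger and ribosomal RNAs thus differed in direction within the same libraries for mt-Rnr2. Between BS6 and BS2 mt-Rnr1 was called lower (-1.29, edgeR, Benjamini-Hochberg adjusted p = 0.0321), and mt-Rnr2 had -0.996 (adjusted p = 0.0493), just short of the fold limit. Between BS6 and SB2 the ribosomal RNA values were 1.24 and 1.09 and did not pass (adjusted p = 0.136 and 0.137).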
